A study of Homo sapiens with 24 samples.

Results

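The NF-κB genes described here are the subunits *NFKB1*, *NFKB2*, *RELA* and *RELB* and 6 genes that NF-κB is known to induce, *NFKBIA*, *NFKBIE*, *TNFAIP3*, *BIRC3*, *TNFAIP2* and *ICAM1*. They were chosen by name, but with earlier results of these data known, and make up 10 of the 58051 gene identifiers counted in every library. RNA-seq had been performed on HT29, HCT116 and SW480 cells, which are established colorectal cancer (CRC) cell lines. HT29 and SW480 cells carry inactivating *APC* mutations and HCT116 cells a gain-of-function *CTNNB1* mutation, so that the WNT/β-CATENIN pathway is active in all of them without ligand. In the KO clones both *CTNNB1* alleles, which encode β-CATENIN, had been inactivated with CRISPR/Cas9 by an exon deletion that shifts the reading frame. The WT clones had kept intact *CTNNB1*. All clones were grown in the same serum-containing medium without further treatment. Each line contributed 2 WT and 2 KO clones, each grown from a single cell and sequenced in rounds A and B, which gave 4 libraries per line and genotype and 24 in all. The clones were WT 11, WT 40, KO 28 and KO 38 of HT29, WT 4, WT 6, KO 44 and KO 47 of HCT116, and WT 4, WT 5, KO 17 and KO 21 of SW480. With 2 clones per group, a property of a single clone cannot be separated well from an effect of the genotype, and the SDs given below, over 4 libraries, hold both differences between clones and differences between rounds.

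NF-κB transcription factors are dimers of REL proteins. In resting cells IκB proteins hold most dimers in the cytoplasm, and signals from TNF, interleukin 1 or Toll-like receptors lead the IKK kinases to mark the IκB proteins for degradation, so that dimers of RELA and p50, the product of *NFKB1*, enter the nucleus. In a slower branch the kinase NIK triggers processing of the *NFKB2* product to p52, which acts with RELB. Many induced genes feed back on the pathway: IκBα and IκBε, encoded by *NFKBIA* and *NFKBIE*, recapture dimers, A20, encoded by *TNFAIP3*, edits ubiquitin chains upstream of IKK, and cIAP2, encoded by *BIRC3*, is a ubiquitin ligase at TNF receptors that also takes part in the turnover of NIK. *TNFAIP2* encodes a cytoplasmic protein first found as a TNF-induced transcript, and *ICAM1* encodes an adhesion molecule that binds leukocyte integrins. In the intestinal epithelium the pathway is best known for its part in inflammation and in cell survival. Transcript counts measure the products of these genes and not the location or the activity of the proteins.

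On the GRCh37 build, which the authors used, *NFKB1* (ENSG00000109320) lies at chr4:103422487-103538459, *NFKB2* (ENSG00000077150) at chr10:104153867-104162281, *RELA* (ENSG00000173039) at chr11:65421070-65430561 and *RELB* (ENSG00000104856) at chr19:45504719-45541450. The inhibitor genes *NFKBIA* (ENSG00000100906) and *NFKBIE* (ENSG00000146232) lie at chr14:35870285-35873955 and chr6:44225903-44233525. *TNFAIP3* (ENSG00000118503) lies at chr6:138188351-138204451, *BIRC3* (ENSG00000023445) at chr11:102188215-102210134, *TNFAIP2* (ENSG00000185215) at chr14:103587813-103603776 and *ICAM1* (ENSG00000090339) at chr19:10381769-10397291. All are annotated as protein coding, and the counts cover their exons. The library kit does not mark the strand. Annotated genes on the opposite strand overlap the spans of *NFKB1*, *RELA*, *TNFAIP3*, *BIRC3*, *TNFAIP2* and *ICAM1*. Whether their exons overlap was not examined, and reads of any shared exon cannot be assigned to a strand.

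Promoter sequences of 8 of the 10 genes, 300 bases that run from 250 before to 50 after each annotated start, were available from RefSeq on the GRCh38.p14 build, a different build from that of the counts. In GGGRNNYYCC, R stands for A or G, Y for C or T and N for any base. This κB consensus, of the sequence class bound by NF-κB dimers, was searched on both strands. It was found in 6 of the 12 promoters of these genes, some of which have more than 1 start, and in 11.3% of all 35116 promoters in the table. The genes with a match were *NFKB1*, *NFKB2*, *NFKBIA*, *TNFAIP3* and *BIRC3*, and those without one in these windows were *RELA*, *TNFAIP2* and *ICAM1*. The *ICAM1* window holds the stretch tggaaattcc, which this pattern does not match, so the lack of a match holds for this pattern only. The TCF/LEF motifs CTTTGAT and CTTTGAA, which partner proteins of β-CATENIN bind, were found in none of the 12 promoters on either strand and in 6.86% of all promoters. A match is a description of letters and does not show a bound site. The promoters of *BIRC3*, *TNFAIP3*, *NFKBIA* and *NFKB2* are shown because these genes rose together in SW480 KO clones, and that of *NFKB1* because it also holds a match while its transcript did not pass the test in any line. They are written 5′ to 3′ on the strand of the gene, with κB matches of either strand in capitals, and overlapping matches run together.
*BIRC3*, chr11:102317234-102317533, plus strand: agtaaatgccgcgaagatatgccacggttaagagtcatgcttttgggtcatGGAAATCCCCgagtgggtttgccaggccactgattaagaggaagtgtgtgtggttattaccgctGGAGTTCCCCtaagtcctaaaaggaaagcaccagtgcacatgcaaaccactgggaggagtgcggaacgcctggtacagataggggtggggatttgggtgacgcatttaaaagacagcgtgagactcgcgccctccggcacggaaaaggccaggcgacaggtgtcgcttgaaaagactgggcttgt
*TNFAIP3*, chr6:137867009-137867308, plus strand: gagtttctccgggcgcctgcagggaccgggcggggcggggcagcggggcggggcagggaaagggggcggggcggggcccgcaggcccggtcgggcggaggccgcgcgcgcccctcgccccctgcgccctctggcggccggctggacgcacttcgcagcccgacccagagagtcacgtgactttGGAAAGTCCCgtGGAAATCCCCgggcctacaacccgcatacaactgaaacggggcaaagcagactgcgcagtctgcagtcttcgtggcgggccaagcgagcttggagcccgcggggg
*NFKBIA*, chr14:35404700-35404999, minus strand: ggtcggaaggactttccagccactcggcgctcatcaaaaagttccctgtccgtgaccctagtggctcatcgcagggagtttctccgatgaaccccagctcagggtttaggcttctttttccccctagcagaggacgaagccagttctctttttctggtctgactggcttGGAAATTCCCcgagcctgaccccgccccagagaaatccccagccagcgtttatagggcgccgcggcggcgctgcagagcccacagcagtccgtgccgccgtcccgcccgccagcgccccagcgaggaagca
*NFKB2*, chr10:102394328-102394627, plus strand: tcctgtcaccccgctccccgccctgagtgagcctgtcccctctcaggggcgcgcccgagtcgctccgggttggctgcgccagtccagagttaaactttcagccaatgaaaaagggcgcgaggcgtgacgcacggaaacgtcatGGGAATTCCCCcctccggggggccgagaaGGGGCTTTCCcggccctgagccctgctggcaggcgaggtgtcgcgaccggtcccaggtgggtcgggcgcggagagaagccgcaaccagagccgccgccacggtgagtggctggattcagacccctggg
*NFKB1*, chr4:102501109-102501408, plus strand: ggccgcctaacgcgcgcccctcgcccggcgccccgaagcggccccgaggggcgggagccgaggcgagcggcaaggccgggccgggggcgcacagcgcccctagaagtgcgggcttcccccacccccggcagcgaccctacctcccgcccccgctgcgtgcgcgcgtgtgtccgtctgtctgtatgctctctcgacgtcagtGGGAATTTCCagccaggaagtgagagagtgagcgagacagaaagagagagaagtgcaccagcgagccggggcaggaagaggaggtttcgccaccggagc
The *NFKB2* promoter shown is 1 of 3 in the table and holds 4 matches in 2 stretches, of which the longer, GGGAATTCCCC, begins 107 bases before the start. In *BIRC3* the stretches GGAAATCCCC and GGAGTTCCCC begin 199 and 135 bases before the start, and in *TNFAIP3* GGAAAGTCCC and GGAAATCCCC begin 67 and 55 bases before it, close together. *NFKBIA* holds GGAAATTCCC 81 bases and *NFKB1* GGGAATTTCC 49 bases before the start.

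Values are read counts that the authors had normalised with 1 DESeq2 size factor per library, computed over all 24 libraries, so they can be compared across lines. Between 22297049 and 29068378 reads per library were recovered from them. *CTNNB1* was at 187 to 1312 normalised counts in the 12 KO libraries and at 5883 to 50939.5 in the 12 WT libraries, and its KO mean came to 4.98% of the WT mean for HT29, 1.83% for HCT116 and 2.18% for SW480. The HT29 library KO 38B stood apart, with 20256 genes with a read against 21719 or more in the other HT29 libraries, and the HCT116 library KO 47A had 35449 against at most 24944 in all others. Of 8 epithelial markers 6 had over 3 reads in every library of each group, but not the same 6 in each line. *VIL1* had WT and KO means of 3.03 and 1.58 in HCT116, and *CDX2* of 5.06 and 11.4 in HT29. *CDX1* was at 0 in every group but HT29 KO, and *CDH1* was low in SW480, with group means of 55.6 and 44.0. The T cell, B cell and endothelial genes *CD3E*, *MS4A1* and *CDH5* had group means of at most 3.65. KO and WT were compared within a line with limma on log2(value + 1), in which a log2 fold change understates the change of a gene with few counts. A gene passed with an adjusted p (Benjamini-Hochberg over all genes tested) under 0.05, and was a DEG if its log2 fold change also exceeded 1 in size. All 10 genes cleared the filter on low values in every line.

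The question in each line was whether loss of β-CATENIN went along with a change of these transcripts. In SW480, 8 of the 10 genes rose in the KO clones and none fell, while 26.1% of the 16325 genes tested rose and 22.1% fell. The rise ranged from a log2 fold change of 0.65 for *ICAM1* to 3.77 for *BIRC3*. *NFKB1* and *RELA*, whose products form the classical dimer, did not pass. The median log2 fold change was 0.88 over the 10 genes and −0.0042 over all genes tested. The authors report that SW480 KO clones turned senescent in long culture, and that HT29 and HCT116 KO clones did not. Whether the sequenced cells had reached that state is not stated, and its part in the result was not tested. In these bulk samples, a change in the share of cells that express a gene and a change in its RNA per cell cannot be told apart.

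Among the subunits, the *NFKB2* transcript had 951, 856, 822 and 949 normalised counts in WT 4A, WT 4B, WT 5A and WT 5B, and 1776, 1684, 2148 and 2153 in KO 17A, KO 17B, KO 21A and KO 21B. Every KO library was above every WT library, with means of 895 ± 65.5 and 1940.3 ± 246 (SD, n = 4) and a log2 fold change of 1.11 (SE 0.0986, adjusted p = 7.42e-06). *RELB*, the partner of p52, had 473, 358, 359 and 376 in the WT libraries in the same order and 520.2, 540.4, 641 and 811 in the KO libraries. The groups did not overlap, although WT 4A came close to KO 17A, and the log2 fold change was 0.67 (SE 0.151, adjusted p = 0.00427). *NFKB1* had means of 1538 ± 89.2 in WT and 1409 ± 84.7 in KO clones, and *RELA* of 2339.7 ± 87.2 and 2304 ± 242. The 95% intervals of their log2 fold changes, −0.28 to 0.032 and −0.21 to 0.15, lay below the estimates for *NFKB2* and *RELB*.

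Both inhibitor genes rose in SW480. *NFKBIA* was even among WT libraries, at 457, 463, 469 and 486, and was at 733, 647, 1074 and 1118 in KO 17A, KO 17B, KO 21A and KO 21B. All KO libraries were higher, but clone KO 21 by more than clone KO 17, and the log2 fold change was 0.89 (SE 0.166, adjusted p = 0.00141). *NFKBIE* had 298, 312, 256 and 235 in WT libraries and 465, 452, 502 and 595 in KO libraries, again without overlap, with a log2 fold change of 0.87 (SE 0.125, adjusted p = 0.000245).

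The feedback genes *TNFAIP3* and *BIRC3* showed the largest rises relative to low levels in WT clones. *TNFAIP3* had 32.3, 23.9, 26.1 and 19.6 normalised counts in the WT libraries and 87.5, 108, 91.5 and 90.2 in the KO libraries, a mean ratio of 3.71 and a log2 fold change of 1.87 (SE 0.193, adjusted p = 2.26e-05). The KO libraries lay close together. *BIRC3* had 93.0, 63.4, 43.4 and 42.1 in the WT libraries and 709, 636, 830.1 and 1066 in the KO libraries, so that the means of 60.5 ± 23.8 and 810.2 ± 188 differed 13.4-fold. Its log2 fold change of 3.77 (SE 0.256, adjusted p = 1.38e-06) was the largest of the 30 tested for these genes in the 3 lines.

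Of the other targets, *TNFAIP2* had 1992, 2208, 1716 and 1691 in WT and 7284, 6748, 5871 and 5463 in KO libraries, with a log2 fold change of 1.74 (SE 0.113, adjusted p = 7.99e-07). It was the most abundant of the 10 genes in SW480 KO libraries by normalised count. *ICAM1* was already high in WT clones, at 1347, 1089.8, 1081 and 1162, and reached 1804, 1811, 1747 and 1981 in KO clones, a mean ratio of 1.57 and a log2 fold change of 0.65 (SE 0.0841, adjusted p = 0.000111). The 4 DEGs among the 10 genes were *NFKB2*, *TNFAIP3*, *BIRC3* and *TNFAIP2*, and 17.5% of all genes tested in SW480 were DEGs. The same 8 genes were those whose WT and KO libraries did not overlap, against 46.2% of all genes tested. When the 2 libraries of a clone were averaged first, which leaves 2 WT against 2 KO values, 7 of the 8 still passed and *RELB* had an adjusted p of 0.0584. Without clone WT 5 *RELB* did not pass either (adjusted p = 0.0516). In the same libraries the summed level of 8 leukocyte markers was 53.3 to 71.8 in WT and 209.8 to 288 in KO, mainly from *CD14* (37.4 and 172), and that of 4 endothelial markers 11.6 to 32.3 and 118 to 234, mainly from *VWF* (20.2 and 161). Of the other leukocyte markers *CSF1R* (1.70 and 20.4), *LYZ* (2.93 and 24.8) and *ITGAM* (0.494 and 16.6) also had higher means in KO libraries. The defining leukocyte gene *PTPRC* had a mean of 1.18 in KO libraries and *CDH5* of 0.470, at or near 0. The part of these markers in the result was not tested.

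**Figure D1:**
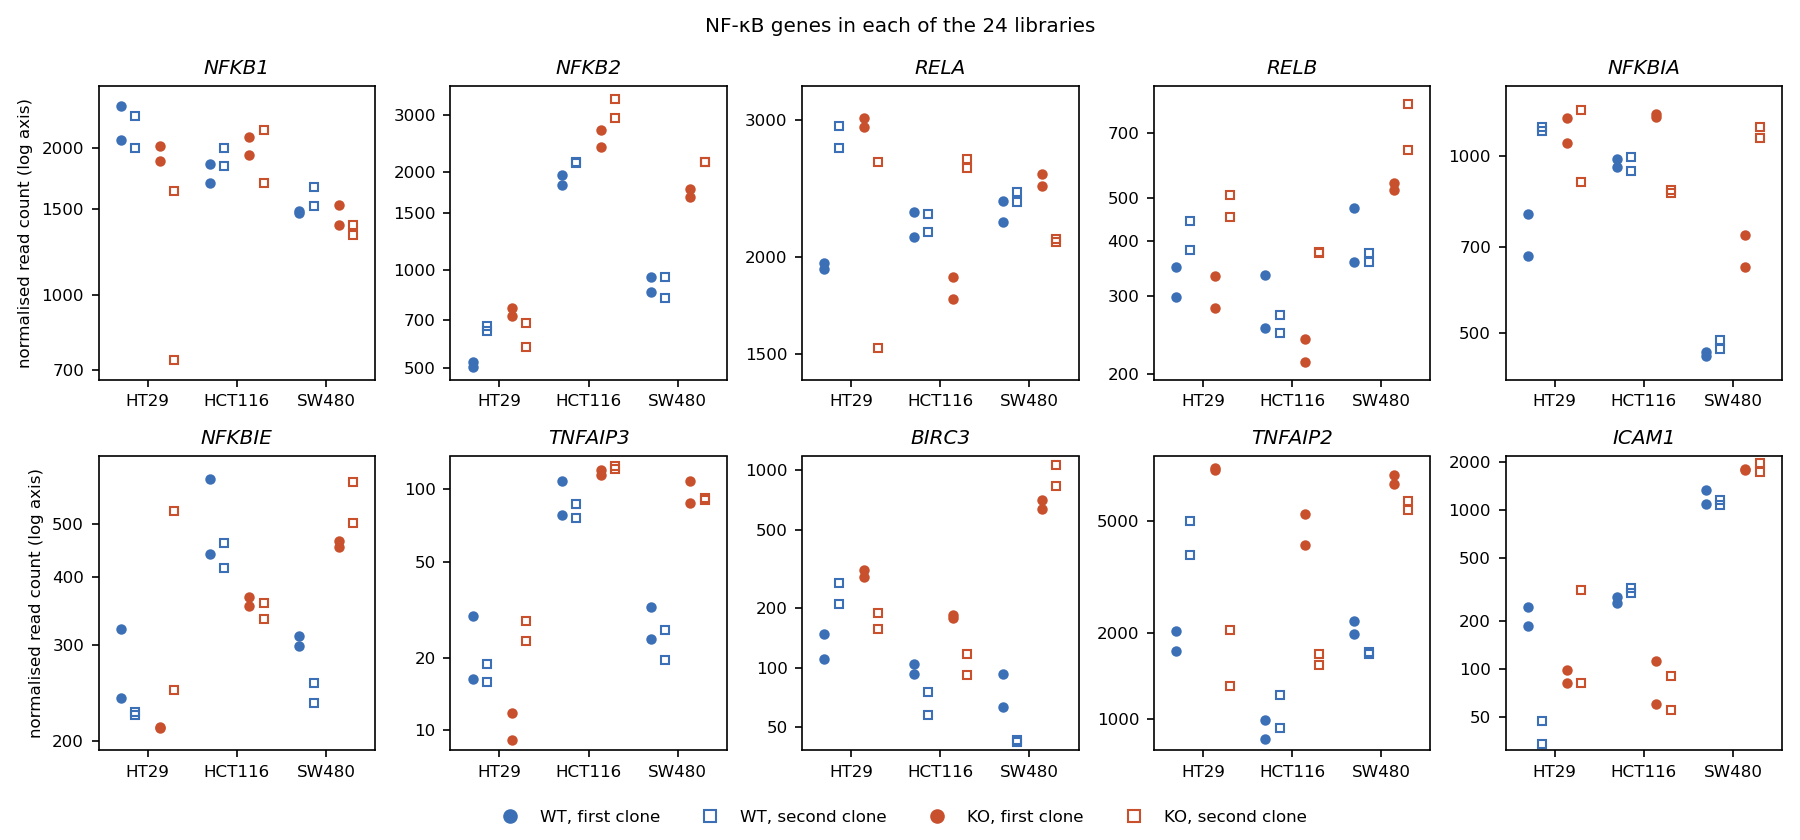
Normalised read counts (log axes, each panel with its own range) of the 10 genes in each of the 24 libraries, by line, with WT in blue, KO in red and a symbol for each clone in the order of the clone numbers. In SW480 the KO libraries of *NFKB2*, *RELB*, *NFKBIA*, *NFKBIE*, *TNFAIP3*, *BIRC3*, *TNFAIP2* and *ICAM1* lie above all WT libraries, while in HT29 the groups overlap in every panel.

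In HCT116 cells fewer of the genes moved, and not in one direction. *NFKB2* and *TNFAIP2* rose in KO clones, where 8.05% of the 15404 genes tested rose, and *ICAM1* fell, where 5.93% fell. *NFKB2* was higher in HCT116 than in the other lines from the start, with 1968, 1830.2, 2161 and 2132 normalised counts in WT 4A, WT 4B, WT 6A and WT 6B, and had 2697, 2389.8, 3361 and 2952 in KO 44A, KO 44B, KO 47A and KO 47B. Every KO library was above every WT library, with a log2 fold change of 0.49 (SE 0.119, adjusted p = 0.0198). The other subunits did not pass, with log2 fold changes of 0.097 for *NFKB1*, −0.0089 for *RELA* and 0.084 for *RELB*.

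*ICAM1* fell in HCT116 KO clones, the opposite of its rise in SW480. Its counts were 285, 259.9, 326 and 302 in the WT libraries and 113, 60.3, 89.9 and 55.2 in the KO libraries, so that KO libraries held 0.271 times the WT mean. The log2 fold change was −1.92 (SE 0.230, adjusted p = 0.000313), and this call held under every alternative tried. In both KO clones the round A library was above the round B library, but all KO libraries were well below the WT libraries. *TNFAIP2* had 991, 848, 1214 and 927 in WT and 4099, 5282, 1542 and 1691 in KO libraries, with a log2 fold change of 1.47 (SE 0.388, adjusted p = 0.0377). The size of this rise depended on the clone, since KO 44 had a mean of 4690.4 and KO 47 of 1617, and the log2 fold change was 0.71 without clone KO 44 and 2.24 without clone KO 47. *TNFAIP2* and *ICAM1* were the DEGs among the 10 genes, against 5.06% of all genes tested.

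The calls for *NFKB2* and *TNFAIP2* in HCT116 depended on how clones and rounds were treated. The rounds paired the HCT116 libraries, and with the round as a replicate block *TNFAIP2* had an adjusted p of 0.0737, while *NFKB2* and *ICAM1* passed. *TNFAIP2* was also lost when any WT library or KO 44A was left out, and *NFKB2* without WT 4B or clone KO 47, and neither passed without clone WT 4 or clone WT 6. With clone means the adjusted p was 0.197 for *NFKB2*, 0.396 for *TNFAIP2* and 0.00488 for *ICAM1*. *NFKB2* also missed the threshold with the clone as a random effect, which estimates the correlation within clones (adjusted p = 0.0585), and *TNFAIP2* without the filter on low values (adjusted p = 0.184). The feedback genes did not pass, although the WT and KO libraries of *TNFAIP3* did not overlap. *TNFAIP3* had 108, 77.96, 86.9 and 76.2 in WT and 114, 121, 124 and 121 in KO libraries, with a log2 fold change of 0.47 (SE 0.179, adjusted p = 0.107). *BIRC3* had 93.6, 105, 75.8 and 58.1 and 179.8, 186, 118 and 92.3, with overlap and a log2 fold change of 0.76 (SE 0.271, adjusted p = 0.0854). *BIRC3* passed in DESeq2 (adjusted p = 0.0381) and without the filter (adjusted p = 0.0468). It also passed without KO 47B, with a log2 fold change of 0.95, and without clone KO 47, with one of 1.16, and over all leave-outs its log2 fold change ran from 0.36 to 1.16. Of the inhibitor genes, *NFKBIE* was lower in all 4 KO libraries, with means of 479.8 ± 84.8 for WT and 354 ± 13.7 for KO, but missed the threshold with a log2 fold change of −0.42 (SE 0.140, adjusted p = 0.0665), and *NFKBIA* had 971 ± 23.9 and 1021 ± 175. In all, 5 of the 10 genes did not overlap between genotypes, against 20.5% of genes tested.

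In HT29 cells none of the 10 genes passed in limma, where 2.08% of the 14921 genes tested rose, 0.476% fell and 2.30% were DEGs. None had an unadjusted p under 0.05, and none passed in edgeR or DESeq2. The count was also 0 without KO 38B. WT and KO libraries overlapped for each of the 10 genes, whereas they did not for 13.0% of all genes tested. The intervals were wide and do not show that the genes were unaffected. For *NFKB1*, with counts of 2439, 2077, 2328 and 1998 in WT 11A, WT 11B, WT 40A and WT 40B and 1879, 2024, 1631 and 735 in KO 28A, KO 28B, KO 38A and KO 38B, the 95% interval of the log2 fold change was −1.28 to 0.097, and KO 38B held the lowest value. For *BIRC3* the interval was −0.40 to 1.15 and for *TNFAIP3* −1.22 to 0.75, both of which end below the estimates in SW480. *TNFAIP3* was scarce in this line, with 29.8, 16.2, 15.8 and 18.8 in the WT libraries and 9.05, 11.7, 28.5 and 23.3 in the KO libraries, in which KO 28 was below and KO 38 within the WT range. *NFKB2* and *NFKBIA* had intervals of −0.16 to 0.62 and −0.22 to 0.71. *TNFAIP2* and *ICAM1* had the widest, −1.10 to 1.71 and −1.24 to 1.98. *ICAM1* had 247, 186, 47.4 and 33.8 in the WT libraries and 98.6, 82.2, 313 and 81.7 in the KO libraries, so that 3 of the 4 KO values lay within the range of the WT libraries. *BIRC3* had 148, 110.5, 269.7 and 210.5 and 312, 288, 189 and 157 in the same order. The remaining intervals were −0.53 to 0.64 for *RELA*, −0.46 to 0.60 for *RELB* and −0.57 to 0.86 for *NFKBIE*.

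**Figure D2:**
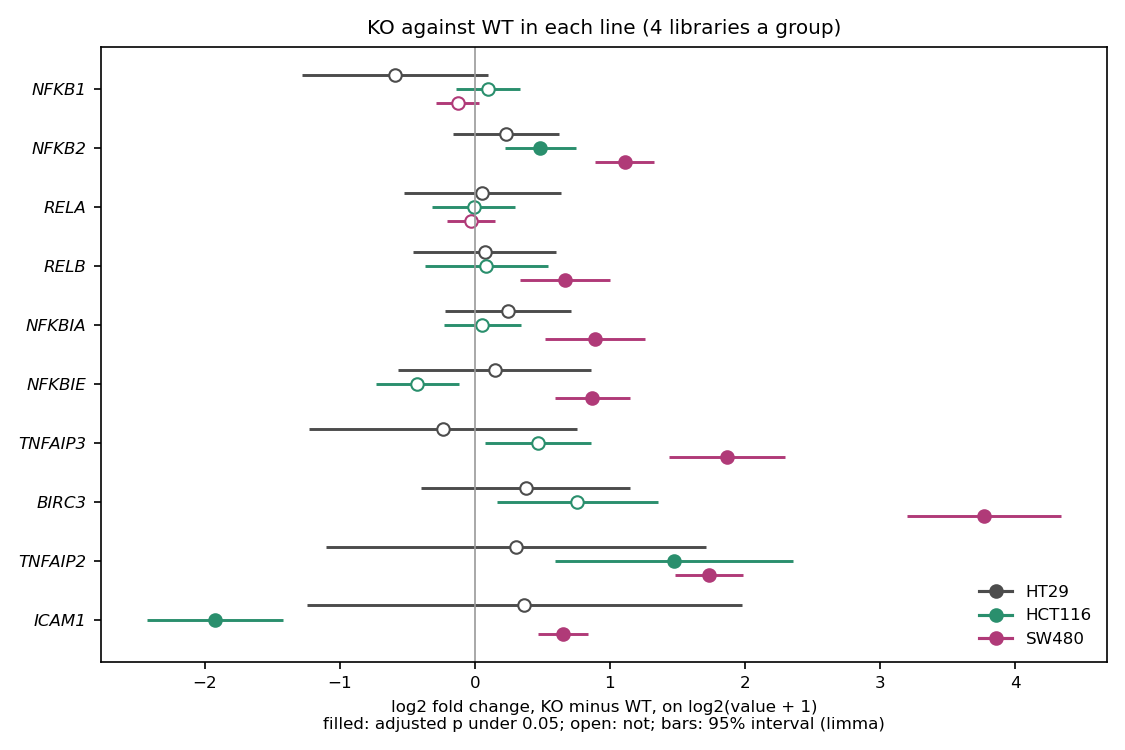
Log2 fold change, KO minus WT, on log2(value + 1), of each gene in HT29, HCT116 and SW480, with 95% intervals from limma (4 libraries per group). Filled points passed at an adjusted p under 0.05, which 8 genes did in SW480, 3 in HCT116 and none in HT29.

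How far clones of the same line and genotype differed bears on each of these comparisons. Over the 10 genes, the median share of the variation (sum of squares) in log2 values that lay between genotypes came to 4.01% for HT29, 56.9% for HCT116 and 89.7% for SW480, and the share between clones within a genotype was 69.3%, 27.2% and 6.64%. In HT29 the WT clones differed in *TNFAIP2*, with means of 1883 in WT 11 and 4396 in WT 40 and a log2 difference of 1.21 (SE 0.254, adjusted p = 0.0248). They also differed in *ICAM1*, with 216 and 40.62 and a log2 difference of −2.39 (SE 0.561, adjusted p = 0.0382). These were 2 of the 10 genes, against 9.02% of all genes. The HT29 KO clones differed in *TNFAIP2*, at 7613 in KO 28 and 1682 in KO 38 and a log2 difference of −2.22 (SE 0.254, adjusted p = 0.00118), as did 16.0% of all genes. For *TNFAIP2*, the mean of KO 28 was thus above and that of KO 38 below those of both WT clones, and 92.5% of its variation in HT29 lay between clones. The spread within clones is shared by both comparisons. The WT count became 5 without KO 38A or KO 38B and 0 without any single library of WT 11, WT 40 or KO 28, and the KO count became 6 without KO 38A and 2 without KO 38B.

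In HCT116 the WT clones did not differ in any of the 10 genes in limma, against 2.61% of all genes. Here 1 gene, *BIRC3*, had an unadjusted p under 0.05, and edgeR and DESeq2 called 0 and 0. The HCT116 KO clones differed in *RELA*, *RELB* and *TNFAIP2*, where 7.16% of all genes differed. *RELA* was at 1822 in KO 44 and 2636 in KO 47 and *RELB* at 227 and 376, so that both were higher in KO 47, the clone in which *TNFAIP2* was lower. The clones lay on either side of the WT means for both subunits. With the round as a replicate block, 6 of the 10 genes differed between the HCT116 KO clones. Without the block, the count became 1 when KO 44A, KO 44B or KO 47B was left out.

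In SW480 the WT clones differed in *BIRC3* with a log2 difference, WT 5 minus WT 4, of −0.83 (SE 0.180, adjusted p = 0.00691), and in *TNFAIP2*, with one of −0.30 (SE 0.0759, adjusted p = 0.0187), against 8.88% of all genes. The SW480 KO clones differed in 5 of the 10 genes, against 28.0% of all genes. KO 21 was above KO 17 in *NFKB2* (log2 difference 0.31), *RELB* (0.44) and *NFKBIA* (0.67), and below it in *RELA* (−0.26) and *TNFAIP2* (−0.31). Each of these differences was smaller than the KO effect of the same gene except for *RELA*, in which 89.8% of the variation lay between clones. *NFKBIA* had means of 689.8 in KO 17 and 1096 in KO 21, both above 460.0 in WT 4 and 478 in WT 5. The KO count became 1 without KO 17A and 3 without KO 17B, and the WT count 1 without any of the WT libraries.

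**Figure D3:**
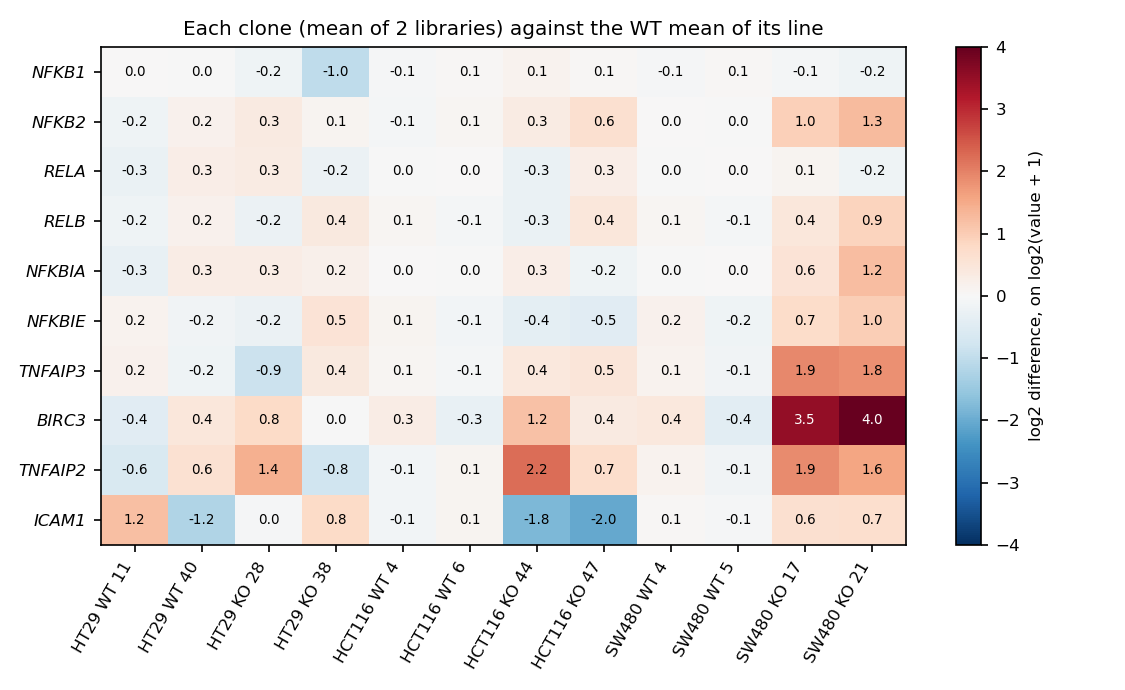
Log2 difference, on log2(value + 1), of each clone (mean of its 2 libraries) from the mean of the WT libraries of its line, for the 10 genes. The SW480 KO clones are above 0 for the same 8 genes, whereas the HT29 KO clones lie on opposite sides of 0 for 7 genes, all but *NFKB1*, *NFKB2* and *NFKBIA*.

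Whether the KO effect itself differed between lines was tested in a model of all 24 libraries. These 3 contrasts share libraries, since each line enters 2 of them. The effect in SW480 exceeded that in HCT116 for 6 of the 10 genes, where 13.2% of the 18609 genes tested differed in either direction. The differences in log2 fold change were 3.01 for *BIRC3* (95% interval 2.09 to 3.93, adjusted p = 4.15e-05), 2.58 for *ICAM1* (1.21 to 3.94, adjusted p = 0.00992) and 1.4 for *TNFAIP3* (0.57 to 2.23, adjusted p = 0.0213). They were 1.30 for *NFKBIE*, 0.83 for *NFKBIA* and 0.62 for *NFKB2*, with adjusted p-values of 0.00561, 0.0285 and 0.025. With an estimated correlation within clones (the clone as a random effect) only *BIRC3* passed, and the adjusted p was 0.0551 for *ICAM1*, 0.0593 for *NFKBIE*, 0.0905 for *NFKBIA*, 0.108 for *NFKB2* and 0.118 for *TNFAIP3*. Leaving out a single library also ended the calls of *NFKB2* (WT 6A or KO 44B of HCT116, WT 4B, WT 5A, KO 21A or KO 21B of SW480), *NFKBIA* (KO 47A or KO 47B of HCT116, WT 4A, WT 4B, KO 21A or KO 21B of SW480) and *TNFAIP3* (WT 5B of SW480), with adjusted p-values of up to 0.0758. For *ICAM1* this combined a fall in HCT116 with a rise in SW480. *TNFAIP2*, which rose in both lines, had a difference of 0.26, with an interval of −1.13 to 1.66.

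The effect in SW480 exceeded that in HT29 for 3 of the 10 genes, against 15.8% of genes tested, namely *BIRC3* (difference 3.39, 2.47 to 4.32, adjusted p = 8.13e-06), *TNFAIP3* (2.10, 1.27 to 2.93, adjusted p = 0.000627) and *NFKB2* (0.88, 0.50 to 1.26, adjusted p = 0.00144). For *RELB*, *NFKBIA*, *NFKBIE* and *TNFAIP2*, which passed in SW480 and not in HT29, the difference did not pass, with adjusted p-values of 0.201, 0.0877, 0.122 and 0.168. Between HCT116 and HT29 the effect differed for *ICAM1* alone (difference −2.29, −3.66 to −0.92, adjusted p = 0.0357), against 7.25% of genes. That call was lost in 23 of 44 alternatives, among them those without WT 40A, WT 40B or KO 38A of HT29, without any HCT116 WT library or without KO 44B or KO 47B, and 4 genes passed without clone KO 28 of HT29. The adjusted p was 0.414 with clone means. With clone means, *BIRC3* alone differed between SW480 and each of the other lines.

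The levels in WT clones show where the lines started. Per kilobase of the canonical transcript, which allows genes to be compared, *RELA* was the highest of the 10 genes in every line, at 953 ± 211 normalised counts in HT29, 876 ± 32.3 in HCT116 and 929.6 ± 34.6 in SW480 (SD, n = 4). *TNFAIP3* was the lowest in HT29 and SW480, at 4.32 ± 1.4 and 5.46 ± 1.14, and *BIRC3* in HCT116, at 12.1 ± 2.98. *NFKBIA* exceeded *NFKBIE* in each line, with 592 ± 143 against 108 ± 19.8 in HT29, 623 ± 15.3 against 205 ± 36.2 in HCT116 and 301 ± 8.16 against 117 ± 15.3 in SW480. These levels depend on the transcript chosen for the length.

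Between WT clones of different lines 8 of the 10 genes differed between HCT116 and HT29, 5 between SW480 and HT29 and 8 between SW480 and HCT116, while 65.4%, 66.8% and 67.5% of the 17205 genes tested did, so these counts are near or below the background. *RELA* did not pass in any pair of lines. *NFKB2* was highest in HCT116, lower in SW480 and lowest in HT29, with normalised counts of 2023 ± 154, 895 ± 65.5 and 587 ± 87.1, and all neighbours in this order differed (adjusted p = 7.85e-07 and 0.000325). *NFKB1* followed the order HT29, HCT116, SW480, with 2210.4 ± 207, 1847 ± 127 and 1538 ± 89.2, and differed between neighbours (adjusted p = 0.0261 and 0.0221), although the libraries of HT29 and HCT116 overlapped. Both *NFKB1* calls were lost with the clone as a random effect (adjusted p = 0.105 and 0.0936), without the filter (0.0688 and 0.0561) and with clone means (0.133 and 0.12). The former was also lost without WT 11A or WT 40A of HT29 or WT 4A or WT 6A of HCT116, and the latter without WT 6B of HCT116 or WT 4A, WT 4B or WT 5A of SW480. *RELB* was at 392 ± 54.9 in SW480 and 368 ± 60.2 in HT29, which did not differ beyond their spread, and at 277 ± 39.8 in HCT116. The difference of *RELB* between HCT116 and HT29 passed (adjusted p = 0.0328) but not with the clone as a random effect (0.108), without the filter (0.064) or without WT 40A or WT 40B of HT29 or WT 4B, WT 6A or WT 6B of HCT116.

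Among the induced genes, *ICAM1* had the widest range across WT clones, from 128 ± 105 in HT29 over 293 ± 27.9 in HCT116 to 1170.0 ± 124 in SW480, with log2 differences of 1.64 (SE 0.506, adjusted p = 0.0124) between HCT116 and HT29 and 1.99 (SE 0.506, adjusted p = 0.0038) between SW480 and HCT116. The former was lost in edgeR (adjusted p = 0.0501), with clone means (0.101) and without clone WT 4 or clone WT 6 of HCT116, and ran from 0.45 to 2.84 over the leave-outs, and the latter was lost with clone means (0.0564). *TNFAIP3* and *NFKBIE* were highest in HCT116, where *TNFAIP3* exceeded HT29 by 2.09 (adjusted p = 6.04e-06) and SW480 by 1.75 on the log2 scale (adjusted p = 3.11e-05), and neither gene passed between SW480 and HT29. *BIRC3* was highest in HT29, at 185 ± 70.1, against 83.1 ± 20.5 in HCT116 and 60.5 ± 23.8 in SW480, of which the latter pair did not pass (adjusted p = 0.186). Its difference between HCT116 and HT29 was lost with clone means (adjusted p = 0.0854). It was also lost without clone WT 40 of HT29 or clone WT 6 of HCT116. *NFKBIA* was lower in SW480 than in HT29 and HCT116, with log2 differences of −0.94 and −1.05 (adjusted p = 5.8e-05 and 2.2e-05), and HT29 and HCT116 did not differ beyond their spread. *TNFAIP2* was at 3139.8 ± 1538, 1902 ± 245 and 995 ± 157 in HT29, SW480 and HCT116, of which HT29 and SW480 did not pass (adjusted p = 0.071). Its difference between SW480 and HCT116 was lost with clone means (adjusted p = 0.0836) and without clone WT 4 of either line. In the SW480 KO libraries *TNFAIP3*, at 94.4 ± 9.41, overlapped with the HCT116 WT libraries, at 87.3 ± 14.7. For *NFKBIA* the means were 893 ± 238 and 971 ± 23.9. Its SW480 KO values lay below the HCT116 WT range of 943 to 994 in KO 17 (733 and 647) and above it in KO 21 (1074 and 1118). *BIRC3*, at 810.2 ± 188 in SW480 KO libraries, was above every WT library of any line.

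**Figure D4:**
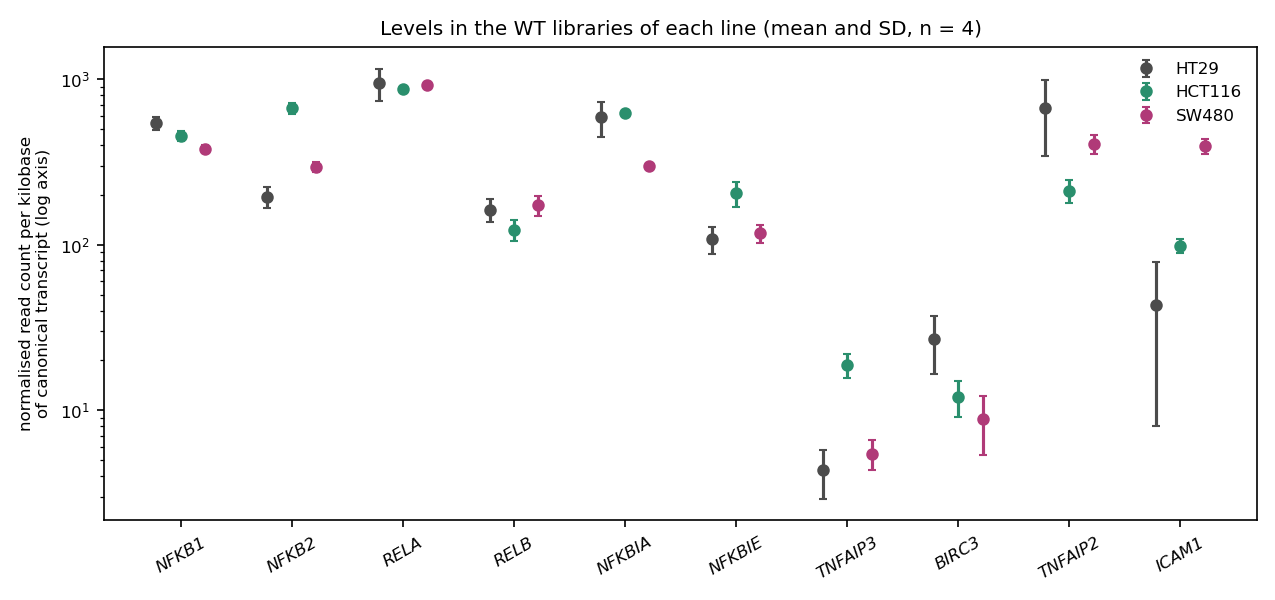
Normalised read counts per kilobase of canonical transcript (log axis, mean and SD over 4 libraries) of the 10 genes in WT libraries of each line. *RELA* lies close together in the 3 lines, while *ICAM1*, *NFKB2* and *TNFAIP3* are spread apart.

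A list of 98 other genes of the pathway gives the surroundings. It held other REL and IκB proteins, kinases, adaptors and ubiquitin ligases, receptors, ligands and further target genes, and 97 had a match. In SW480 73 were tested, of which 43 rose and 8 fell in KO clones, against 26.1% and 22.1% of all genes tested, with a median log2 fold change of 0.37. In HCT116 13 of 70 rose and 1 fell, against 8.05% and 5.93% of all genes (median 0.17), and in HT29 4 of 72 rose and 2 fell, against 2.08% and 0.476% (median 0.10). The medians over all genes tested were −0.0042, −0.014 and 0.031.

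By role, in SW480 11 of 14 receptor genes tested rose and 1 fell, where 26.1% of all genes rose and 22.1% fell, and 12 of 21 adaptor and ligase genes rose and 2 fell. Of 17 further target genes 10 rose and 3 fell, and of 5 ligand genes 3 rose. The 3 that fell were *NOS2*, *IER3* and *GADD45B*. *NOS2* had means of 107 ± 34.0 in WT and 1.41 ± 0.940 in KO clones (log2 fold change −5.56, adjusted p = 1.81e-06). *PLAU*, the urokinase plasminogen activator, had means of 96.6 ± 13.0 in WT and 13197 ± 3943 in KO clones (log2 fold change 7.04, adjusted p = 5.61e-09). *CSF2*, which encodes the cytokine GM-CSF, had means of 4.89 ± 2.39 in WT and 393 ± 139 in KO clones (log2 fold change 6.09, adjusted p = 2.21e-07). The kinase genes rose in 6 of 11 cases, and the 1 that fell was *MAP3K8*, which encodes a kinase bound by the *NFKB1* product p105, with means of 418 ± 21.2 in WT and 95.4 ± 8.62 in KO clones (log2 fold change −2.12, adjusted p = 1.52e-07). Of the other REL and IκB genes *BCL3*, which encodes a nuclear IκB protein that binds p50 and p52, rose, with means of 129.8 ± 16.9 in WT and 464 ± 39.7 in KO clones (log2 fold change 1.83, adjusted p = 9.16e-07), and *NFKBID* fell. *NOS2*, *IER3*, *GADD45B*, *BCL3* and *NFKBID* were named after their values were seen.

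In HCT116 KO clones 6 of 15 receptor genes rose and none fell, where 8.05% of all genes rose and 5.93% fell. *PLAU* rose here as well, with means of 658 ± 138 in WT and 5926 ± 1755 in KO clones (log2 fold change 3.15, adjusted p = 8.06e-06), and so did *IL18*, an inflammasome-dependent cytokine, with means of 1512 ± 509.8 in WT and 6528 ± 287 in KO clones (log2 fold change 2.17, adjusted p = 5.28e-05). The 1 kinase gene that rose was *MAP3K14*, which encodes NIK, the kinase upstream of the *NFKB2* product, with means of 283 ± 59.4 in WT and 1056 ± 179.6 in KO clones (log2 fold change 1.90, adjusted p = 3.32e-05). In SW480 *MAP3K14* had means of 472 ± 105 in WT and 1399.9 ± 90.9 in KO clones (log2 fold change 1.59, adjusted p = 7.58e-06), and in HT29 means of 285 ± 34.1 in WT and 319 ± 93.3 in KO clones (log2 fold change 0.12, adjusted p = 0.835). *NFKBIB*, which encodes IκBβ, was the 1 listed gene that fell in HCT116, with means of 2321 ± 198 in WT and 1614 ± 193 in KO clones (log2 fold change −0.53, adjusted p = 0.011). *MAP3K14* and *NFKBIB* were singled out after their values were seen.

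In HT29 KO clones the ligand genes *TNFSF10*, which encodes TRAIL, and *IL18* rose, with means of 67.3 ± 15.0 in WT and 537 ± 360.3 in KO clones (log2 fold change 2.76, adjusted p = 0.0168) for the former and means of 89.6 ± 17.2 in WT and 309.9 ± 109.9 in KO clones (log2 fold change 1.74, adjusted p = 0.0174) for the latter. Of the further targets *CSF1* and *JUNB* also rose, and the chemokine genes *CXCL1* and *CXCL3* fell. *CXCL1* had means of 92.5 ± 24.3 in WT and 14.0 ± 10.4 in KO clones (log2 fold change −2.99, adjusted p = 0.0411). *CSF1*, *JUNB*, *CXCL1* and *CXCL3* were likewise named after their values were seen.

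Finally, the patterns of the genes were compared over the 24 libraries, after the mean of each line had been subtracted from the log2 values. These correlations share the libraries, their depth and the contrast of genotypes, and are given as a description. Among the 10 genes the closest pairs were *NFKB2* and *BIRC3* (r = 0.89), *NFKBIA* and *BIRC3* (r = 0.82) and *NFKB2* and *NFKBIA* (r = 0.75), and the most opposed were *NFKB1* and *NFKBIE* (r = −0.65) and *RELA* and *NFKBIE* (r = −0.54). The HT29 library KO 38B held the lowest HT29 values of *NFKB1* (735) and *RELA* (1526) and the highest of *NFKBIE* (528). How far the opposed pairs rest on this library was not tested. Outside the 10 genes, among 13028 genes tested in every line, the gene with the most similar pattern was *PBX2* for *NFKB1* (r = 0.939), *ARHGEF1* for *NFKB2* (r = 0.939), *EXOC2* for *RELA* (r = 0.901), *DNTTIP1* for *RELB* (r = 0.827) and *C5orf15* for *NFKBIA* (r = 0.907). It was *GLRX5* for *NFKBIE* (r = 0.933), *VAMP4* for *TNFAIP3* (r = 0.947), *MBP* for *BIRC3* (r = 0.963), *ALS2CL* for *TNFAIP2* (r = 0.986) and *CLDND1* for *ICAM1* (r = 0.836).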

How the data were processed

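RNA of WT and KO clones of HT29, HCT116 and SW480 cells had been sequenced in paired-end mode from TruSeq RNA libraries with oligo-dT capture. Per the submitters' processing notes, reads were aligned to GRCh37 with STAR 2.7.5b and counted per gene with featureCounts 2.0.1. The values deposited by the authors are signal, namely gene counts divided by 1 DESeq2 size factor (DESeq2 2.11.40.6 in the notes) per library, and the deposited tables of fold changes and p-values per line hold the authors' own comparisons and were not used. Dividing each library by the value of 1 read recovered whole reads (within 0.01 of a read) for 100% of the values in each library, and the scaling matched size factors computed here over the 24 libraries within 0.000465%. Gene symbols, positions and transcript lengths came from the GENCODE annotation lifted to GRCh37, and 95.8% of identifiers had a symbol.

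The main test was limma 3.58.1 (R 4.3.3) with trend and robust settings on log2(value + 1), for genes that reached 10 normalised counts in 4 or more libraries of a fit, with Benjamini-Hochberg adjustment over all genes. KO was compared with WT within a line, clones within a genotype, WT clones between lines, and KO effects between lines. Samples were grouped by their labels. Because the p-values rest on 2 clones sequenced in 2 rounds, they measure the spread between these libraries. The alternatives were edgeR 4.0.16 with TMM and DESeq2 1.42.0 on recovered reads, pseudocounts of 0.1 and 5, no filter, the round as a replicate block, the clone as a random effect, clone means, and leaving out each library and each clone. The tests were checked on simulated reads that held no differences between clones of a genotype. That check therefore does not bear on the use of 2 rounds of a clone as replicates. Rounds paired the libraries in HCT116, where the A minus B differences of any 2 clones correlated across genes at 0.182 to 0.374, with 6 of 6 pairs of clones over 0.1, against 2 of 6 in HT29 and 1 of 6 in SW480. Figures were drawn with Python 3.11.15 and matplotlib 3.10.9.

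The 10 genes, the pathway list, the marker lists and the rules were chosen with earlier results of these data known. Named beyond the 10 genes were *CTNNB1*, per line the 2 largest rises and 2 largest falls of the pathway list among DEGs that averaged 100 or more normalised counts, and for each gene the 1 outside gene with the highest correlation. *NOS2*, *IER3*, *GADD45B*, *BCL3*, *NFKBID*, *MAP3K14*, *NFKBIB*, *CSF1*, *JUNB*, *CXCL1* and *CXCL3* fell outside this rule and were named after their values were seen. The 6 fibroblast markers summed to 14.2 to 26.9 in HT29 WT and 109 to 1212 in HT29 KO libraries, from *LUM* (means 0 and 607), to 289 to 443 and 327 to 396 in HCT116 and to 213 to 564 and 236 to 285 in SW480, and the HT29 leukocyte sum was almost wholly *LYZ* (24677 and 21624). In HCT116 the leukocyte sum was 22.0 to 36.2 in WT and 13.2 to 58.9 in KO, and the endothelial sum 6.42 to 21.9 and 5.65 to 48.2, against 0.960 to 2.96 and 9.08 to 36.2 in HT29. The 2 listed symbols *SOD2* and *PECAM1* had no match.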

Additional observations from a re-analysis of the deposited data

Results flagged for a closer look

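There were 60 groups of 4 libraries (10 genes in 6 groups of line and genotype). Of these, 3 held a library whose distance from the nearest other exceeded the 95% critical value of Dixon's test. Chance gives this in about 5% of groups of 4 independent values. Here 2 libraries came from each clone, so that share need not hold. *RELB* was at 473 in the SW480 library WT 4A, above the other SW480 WT libraries. *NFKBIE* was at 528 in the HT29 library KO 38B, which stood apart in its number of detected genes, and *ICAM1* at 313 in the HT29 library KO 38A, against 81.7 to 98.6 in the other HT29 KO libraries. Without KO 38B the log2 fold change of *NFKBIE* in HT29 was −0.16, and without KO 38A that of *ICAM1* was −0.092, neither of which passed. Without WT 4A, *RELB* in SW480 had a log2 fold change of 0.76 and passed.

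The KO effect differed between lines by a test of the difference itself in 10 of 30 cases. Between SW480 and HCT116 the difference in log2 fold change was 3.01 for *BIRC3*, 2.58 for *ICAM1*, 1.4 for *TNFAIP3*, 1.30 for *NFKBIE*, 0.83 for *NFKBIA* and 0.62 for *NFKB2*. Between SW480 and HT29 it was 3.39 for *BIRC3*, 2.10 for *TNFAIP3* and 0.88 for *NFKB2*, and between HCT116 and HT29 −2.29 for *ICAM1*. Over all genes tested, from 7.25% to 15.8% differed between a pair of lines.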

How the results depend on the processing

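In SW480 the count of genes that passed was 7 with clone means and 8 under the other alternatives that kept all clones, and 7 to 8 when a library or clone was left out (7 without clone WT 5). In HT29 it was 0 under every alternative, also without KO 38B. In HCT116 it was 3 in limma, 5 in DESeq2, where *NFKBIE* and *BIRC3* were added, 1 with clone means, 2 with the round as a replicate block or the clone as a random effect, and 1 to 4 when a library or clone was left out, and it fell to 1 without WT 4B, clone WT 4 or clone WT 6. The replicate block changed no other call of KO against WT. Of the differences in KO effect, the count between HCT116 and HT29 was 1 in limma, 0 with edgeR, without the filter, with the clone as a random effect and with clone means, and 0 to 4 under leave-outs, with 4 without clone KO 28 of HT29. Between SW480 and HT29 it was 3, 1 with clone means and 3 to 5 under leave-outs, with 5 without clone KO 28 or clone KO 38 of HT29. Between SW480 and HCT116 it was 6, 3 without the filter, 1 with the clone as a random effect, 1 with clone means and 3 to 6 under leave-outs, with 3 without clone WT 5 or clone KO 21 of SW480. Between WT lines clone means gave 4 genes for HCT116 against HT29 and 4 for SW480 against HCT116, in place of 8 each, and leave-outs gave 5 to 8 (5 without clone WT 6 of HCT116), 5 to 7 and 6 to 8. Between clones the replicate block gave 2 genes for the HT29 KO pair in place of 1 and 6 for the HCT116 KO pair in place of 3, and leave-outs gave 0 to 5 and 1 to 6 for the HT29 WT and KO pairs, 1 to 3 for the HCT116 KO pair, and 1 to 2 and 1 to 6 for the SW480 WT and KO pairs. The direction turned only for KO effects that did not pass. *RELA* in HCT116 was 0.021 in edgeR and 0.013 in DESeq2, against −0.0089 in limma. Over the leave-outs the log2 fold change in HT29 ran from −0.23 to 0.34 for *RELA*, −0.25 to 0.39 for *RELB*, −0.054 to 0.55 for *NFKBIA*, −0.24 to 0.53 for *NFKBIE*, −0.86 to 0.39 for *TNFAIP3*, −0.069 to 0.82 for *BIRC3*, −0.80 to 1.41 for *TNFAIP2* and −0.83 to 1.56 for *ICAM1*. In HCT116 it ran from −0.28 to 0.26 for *RELA*, −0.28 to 0.45 for *RELB* and −0.16 to 0.27 for *NFKBIA*, and in SW480 from −0.16 to 0.10 for *RELA*. Leaving out a library or clone gives fewer values, and the cause of the other changes was not tested. Over all genes in HT29, 382 passed in limma, 1267 in DESeq2, 223 with the replicate block, 121 with the clone as a random effect and 0 with clone means, and with clone means 426 passed in HCT116 and 3789 in SW480 in place of 2154 and 7857. *TNFAIP3* in HT29, at 9 to 31 reads per library, is the gene most limited by depth.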
